A study of Mus musculus with 1646 samples.

Results

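The bone morphogenetic protein (BMP) ligands Bmp2, Bmp3, Bmp4, Bmp5, Bmp6 and Bmp7 were followed through the mesenchyme of the mouse colon, from the fibroblasts placed at the crypt base to those placed at its apex and through the mural cells of the vessels. These 6 genes were taken by symbol out of the 46517 genes of the count table. The cells came from adult male mice aged 10 to 20 weeks on a C57Bl6/J background and were sorted one by one from 4 fluorescent reporter lines: 761 cells from PdgfrbGFP, 567 from Acta2GFP, 91 from Cspg4dsRED and the rest (13.8%) from PdgfraGFP, which makes 1646 cells on 9 plates. Per the study's methods cells were enriched by reporter signal, by antibodies to PDGF receptors or by both, CD31-positive endothelium was sorted away, elastase was added to the digestion for Acta2GFP, and some mice carried more than one reporter. A line is therefore a strain of mouse, neither a treatment nor a gate on its own promoter alone. The labels assign every cell to 1 of 8 clusters. Fibroblasts make up clusters 7 (13.5% of cells), 5 (25.8%), 1 (29.3%), 6 (2.73%) and 2 (7.96%), listed from crypt base to apex. Vascular smooth muscle cells and pericytes make up clusters 3 (8.57%) and 4 (8.63%), and interstitial smooth muscle cells make up cluster 8 (3.40%). The study drew the clusters from these same counts, the order along the crypt is its own reading, and the labels name no mouse, so the reporter line served as the replicate and p-values measure only the spread between lines.

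BMPs are secreted dimers of the TGF-beta superfamily that are cut from precursors and bind type I and type II serine/threonine kinase receptors, after which SMAD1, SMAD5 and SMAD9 enter the nucleus with SMAD4. In the intestine BMP signalling is strongest in the villus or at the crypt mouth, where epithelial cells differentiate, while antagonists such as noggin and chordin-like proteins hold it down around the stem cells of the crypt base. BMP2 and BMP4 form one subfamily, BMP5, BMP6 and BMP7 another, and BMP3 is an atypical member that dampens signalling by the others.

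The subfamilies can be read in the end of the coding sequence, which encodes the carboxyl end of the mature ligand, the part best conserved between members and the most likely place for short reads to be shared. An equally long stretch of each member, up to and including the stop codon, is shown 5′ to 3′ in the direction of the gene, from GENCODE vM21 on build GRCm38. Capitals mark bases that differ from Bmp2 at the same position, counted along an alignment without gaps.
Bmp2, chr2:133561602-133561715, plus strand: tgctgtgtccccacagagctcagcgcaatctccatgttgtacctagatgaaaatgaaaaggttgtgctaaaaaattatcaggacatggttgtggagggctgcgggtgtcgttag
Bmp3, chr5:98879816-98879929, plus strand: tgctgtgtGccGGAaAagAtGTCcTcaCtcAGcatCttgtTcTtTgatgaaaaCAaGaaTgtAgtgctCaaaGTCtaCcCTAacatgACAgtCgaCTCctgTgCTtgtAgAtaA
Bmp4, chr14:46383859-46383972, minus strand: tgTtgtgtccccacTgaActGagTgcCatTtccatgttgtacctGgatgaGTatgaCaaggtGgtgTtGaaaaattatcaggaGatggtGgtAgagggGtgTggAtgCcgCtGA
Bmp5, chr9:75898469-75898582, plus strand: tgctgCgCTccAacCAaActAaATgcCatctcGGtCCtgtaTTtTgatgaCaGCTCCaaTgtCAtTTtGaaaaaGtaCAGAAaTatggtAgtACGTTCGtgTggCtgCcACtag
Bmp6, chr13:38498955-38499068, plus strand: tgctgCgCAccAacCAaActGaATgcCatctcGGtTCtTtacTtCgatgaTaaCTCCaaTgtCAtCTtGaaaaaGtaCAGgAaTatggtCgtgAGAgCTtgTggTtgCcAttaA
Bmp7, chr2:172870137-172870250, minus strand: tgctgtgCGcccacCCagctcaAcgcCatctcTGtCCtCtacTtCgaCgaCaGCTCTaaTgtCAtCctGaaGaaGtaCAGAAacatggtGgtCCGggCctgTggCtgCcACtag
Bmp2 and Bmp4 had the same base at 78.9% of these positions. Bmp5 matched Bmp6 at 83.3% and Bmp7 at 80.7%, and Bmp6 matched Bmp7 at 77.2%, whereas Bmp2 matched Bmp5, Bmp6 and Bmp7 at 56.1%, 59.6% and 63.2%. Bmp3 matched Bmp2 at 62.3%. No stretch of 50 bases, the read length, was shared between the exons of any pair of members.

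Other genes lie over the members. Bmp5 occupies chromosome 9, 75775364 to 75900310, on the plus strand, and 1878 bases of its exons (46.7%) also belong to Gm26903, a gene annotated on the opposite strand. The library method does not mark the strand, and the counting is not stated to use it, so reads there cannot be told apart. Gm26903 itself had levels of 1.78, 4.70, 75.6, 314.03 and 288.8 in clusters 7, 5, 1, 6 and 2. Bmp6 (chromosome 13, 38345107 to 38500302, plus strand) shared 5.74% of its exon bases with Txndc5, and Bmp4 (chromosome 14, 46383520 to 46390669, minus strand) shared 3.96% with Gm15217. Bmp2 (chromosome 2, 133552159 to 133562885, plus strand), Bmp3 (chromosome 5, 98854415 to 98884396, plus strand) and Bmp7 (chromosome 2, 172868012 to 172940321, minus strand) had no such partner.

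Each cell held 47598 to 1494292 gene counts, with medians by cluster from 118252 in cluster 8 to 359677 in cluster 3. A level is the mean over cells of counts per 500000 gene counts, given per line where the line had at least 10 cells of the cluster. The 5 apex markers (Tnc, Foxl1, Il1rl1, Ptgs2 and Lama5) had summed levels of 42.8, 86.8, 585, 484 and 3882 in clusters 7, 5, 1, 6 and 2, so that cluster 6 did not lie above cluster 1. The 4 base markers (Cd34, Wnt2b, Sfrp1 and Wnt2) had 1513, 1348, 1281, 51.6 and 86.7. Fibroblast markers summed to between 5473 and 8540 in the fibroblast clusters and to between 523 and 1811 in clusters 3, 4 and 8. Markers of endothelial, immune, epithelial and glial cells had mean sums between 0.311 and 64.5 in every cluster. The 3 markers of interstitial cells of Cajal (Kit, Ano1 and Etv1) summed to 3.69, 23.2, 21.9, 124.5 and 187.5 in clusters 7, 5, 1, 6 and 2 and to 305.6 and 342.7 in clusters 3 and 4. Along the crypt this was Ano1 (0.766 in cluster 7, 170.8 in cluster 2) and Etv1 (97.2 in cluster 6), while Kit stayed at or below 0.503 in the fibroblast clusters, and their part in the ligand values was not tested. Cluster 6 carried more smooth muscle marker counts (Acta2, Myh11, Cnn1 and Actg2) than the other fibroblast clusters, 972 (489 to 1454 over 2 lines) against means of 52.2 to 203.7, and more of the pericyte markers (Kcnj8, Abcc9, Higd1b and Vtn), 204.4 against 7.30 to 40.5. Of the first sum Acta2 made up 908.5, with Myh11 at 50.7, Actg2 at 9.46 and Cnn1 at 2.88. The second came from Kcnj8 (103.1) and Abcc9 (101.4), with Higd1b and Vtn at 0 in both lines. The mural markers Des, Rgs5 and Notch3 stood at 2.53, 3.01 and 0.249 there and Tagln at 220.2. The part of these counts in the values of cluster 6 was not tested.

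Between the crypt ends, 4 of the 6 members were higher at the apex (cluster 2) than at the base (cluster 7) and none passed as lower: Bmp2, Bmp4, Bmp5 and Bmp7 passed the test, and Bmp3 and Bmp6 did not. Of all 21739 genes tested, 3.66% passed in either direction and 2.12% were higher at the apex. The study singled out Bmp2, Bmp5 and Bmp7 as apex ligands from these cells, so their direction is not independent evidence.

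Bmp2, the ligand best known from bone and from the differentiated gut epithelium, had levels of 9.72, 6.83 and 5.44 in cluster 7 in the PdgfrbGFP, Acta2GFP and PdgfraGFP lines, and of 549, 399.1 and 422.4 in cluster 2. All lines at the apex lay above all lines at the base, with means of 456.8 ± 80.6 (SD, n = 3 lines) and 7.33 ± 2.19 (SD, n = 3 lines), a ratio of 62.3. The log2 difference was 5.65 (SE 0.835, adjusted p = 0.000472, edgeR, quasi-likelihood, Benjamini-Hochberg). Between those ends the levels were 16.1, 7.19, 21.7 and 1.13 in cluster 5 (with Cspg4dsRED last), 32.8, 13.4 and 19.1 in cluster 1, and 116.3 (Acta2GFP) and 115.5 (PdgfraGFP) in cluster 6. Lines of neighbouring clusters overlapped from 7 to 1, while those of clusters 6 and 2 stood above all earlier ones and apart from each other.

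Bmp4, a ligand of the gut mesenchyme and a target of Hedgehog signals from the epithelium, was already present at the base and was the member with the smallest ratio among those that passed. Its levels in PdgfrbGFP, Acta2GFP and PdgfraGFP were 164.7, 135.6 and 122.7 in cluster 7 and 846, 646 and 860 in cluster 2, again with no overlap. The means were 141.004 ± 21.5 (SD, n = 3 lines) and 784 ± 119.4 (SD, n = 3 lines), a ratio of 5.56, and the log2 difference was 2.41 (SE 0.585, adjusted p = 0.0227, edgeR, quasi-likelihood, Benjamini-Hochberg). The climb lay in the lower part of the order: cluster 5 had 287.3 ± 64.9 (SD, n = 4 lines) and cluster 1 had 807 ± 45.6 (SD, n = 3 lines). The 2 lines of cluster 6 with at least 10 cells (1017 and 959) lay above all those of cluster 1, whereas its 9 PdgfrbGFP cells held 563, below them. Cluster 2 overlapped cluster 1.

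Bmp5, a member of the BMP5/6/7 subfamily, had the largest ratio. It measured 7.87, 4.07 and 0.524 in cluster 7 and 656, 799 and 595 in cluster 2 in PdgfrbGFP, Acta2GFP and PdgfraGFP, a ratio of means of 164.4 and a log2 difference of 7.35 (SE 0.879, adjusted p = 6.73e-05, edgeR, quasi-likelihood, Benjamini-Hochberg). The lines of cluster 5 (22.1, 4.34, 6.39 and 2.28) overlapped those of cluster 7. Those of cluster 1 (154.6, 162.7 and 171.7) were tightly grouped and lay above them, and those of cluster 6 (725 in Acta2GFP and 511 in PdgfraGFP) overlapped those of cluster 2.

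Bmp7, a ligand with wide roles in kidney and eye development, followed Bmp5 with a larger spread between lines. Its levels were 3.08, 0.873 and 6.28 in cluster 7 and 375.9, 614 and 204.6 in cluster 2, a ratio of means of 116.8 and a log2 difference of 7.11 (SE 1.08, adjusted p = 0.000558, edgeR, quasi-likelihood, Benjamini-Hochberg). Cluster 5 overlapped cluster 7, with 5.20, 0.905, 0.386 and 0 (Cspg4dsRED). Cluster 1 held 62.8, 40.8 and 12.7, above every line of clusters 7 and 5, and cluster 6 held 441.2 and 259.2, within the range of cluster 2.

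Bmp6, the third of that subfamily and the regulator of hepcidin in the liver, did not share this pattern. Its levels were 35.3, 49.6 and 65.3 in cluster 7, 41.7, 60.2 and 30.8 in cluster 1 and 20.001, 15.6 and 34.5 in cluster 2. Cluster 5 held 22.3, 36.4, 7.06 and 37.2 (Cspg4dsRED), and cluster 6 held 1.76 (Acta2GFP) and 19.5 (PdgfraGFP). The base lay above the apex in 3 of 3 lines and in 4 of 4 plates with at least 10 cells of both clusters, by a ratio of means of 2.14, but the log2 difference of apex against base of −0.38 (SE 0.953) did not pass (adjusted p = 0.957, edgeR, quasi-likelihood, Benjamini-Hochberg). Neighbouring clusters in its order of levels overlapped throughout. Counts summed over cells before scaling gave 36.1 in cluster 2 and 19.8 in cluster 5, the reverse of the order of their mean levels (23.4 and 25.7). The counts were uneven between cells: in cluster 7 the median cell had 2.89, the upper quartile 60.4 and the highest cell 697 counts per 500000.

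Bmp3, the atypical member, was high in a single cluster. Cluster 6 held 309.7 (Acta2GFP) and 490 (PdgfraGFP), and the 9 PdgfrbGFP cells of that cluster held 417.8. Every other cluster lay at or below 9.23 in every line with at least 10 cells, including cluster 2 (8.47, 8.33 and 3.51) and cluster 7 (5.32, 5.29 and 4.23). With counts summed over cells before scaling, PdgfrbGFP in cluster 2 stood at 28.02 and the mean of that cluster at 12.6. The difference between the crypt ends was 1.46 on the log2 scale (SE 1.09, adjusted p = 0.623, edgeR, quasi-likelihood, Benjamini-Hochberg).

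Bmp2, Bmp4, Bmp5 and Bmp7 were higher at the apex in 3 of 3 lines and in 4 of 4 plates. The calls were sensitive to single lines. Without Acta2GFP, Bmp2 (log2 difference 5.47, adjusted p = 0.0521) and Bmp7 (6.18, adjusted p = 0.0614) missed the threshold in the edgeR fit. Bmp4 missed it without PdgfrbGFP (2.46, adjusted p = 0.0852) and without PdgfraGFP (2.36, adjusted p = 0.222), while Bmp5 passed under all 10 alternative settings.

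**Figure D1:**
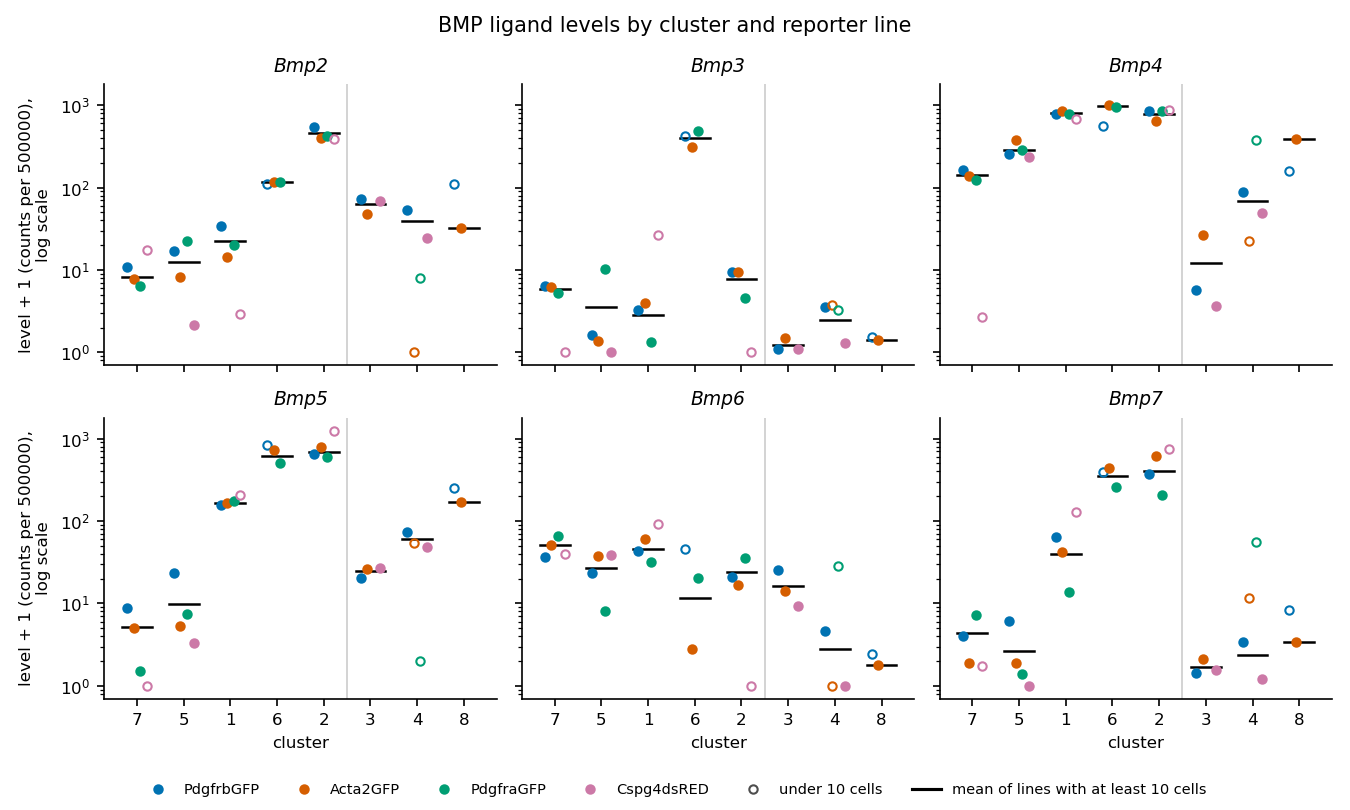
Level of each BMP ligand (counts per 500000 plus 1, log scale) by cluster, fibroblast clusters 7, 5, 1, 6 and 2 to the left of the grey line and clusters 3, 4 and 8 to the right. Points are reporter lines, open where the line had under 10 cells, and bars are means over the filled points: Bmp2, Bmp5 and Bmp7 climb to cluster 2, Bmp3 peaks at 399.8 in cluster 6, and Bmp6 does not climb with them.

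The steps between neighbouring clusters place these differences along the order. From cluster 7 to cluster 5 none of the 6 members passed, by edgeR, by limma or by DESeq2 (which gave no adjusted p for Bmp3), and none had an unadjusted p under 0.05 by edgeR. Only 0.0138% of all genes passed at this step. Bmp4 had the largest positive value, 1.06 (SE 0.534, adjusted p = 0.793, edgeR, quasi-likelihood, Benjamini-Hochberg), and lay higher in cluster 5 in 3 of 3 lines and 5 of 5 plates.

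From cluster 5 to cluster 1, Bmp5 and Bmp7 rose, 2 of 6 members, beside 0.184% of all genes in either direction and 0.129% that rose. Bmp5 rose by 4.73 on the log2 scale (SE 0.690, adjusted p = 0.00354) and Bmp7 by 4.68 (SE 0.854, adjusted p = 0.0258) in the same edgeR fit, both in 3 of 3 lines and 7 of 7 plates. Bmp4 differed by 1.26 (SE 0.517) in the same direction in 7 of 7 plates without passing (adjusted p = 0.574, the same edgeR test). Without Acta2GFP neither call held (Bmp5 4.52, adjusted p = 0.242, and Bmp7 4.41, adjusted p = 0.571, the same edgeR test), and without Cspg4dsRED Bmp7 missed the threshold (4.41, adjusted p = 0.0588). With limma on log values per cell Bmp7 differed by 1.44 (adjusted p = 0.941) and did not pass.

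From cluster 1 to cluster 6, Bmp3 rose by 7.33 on the log2 scale (SE 1.43, adjusted p = 0.0243, edgeR, quasi-likelihood, Benjamini-Hochberg), from 1.85 ± 1.36 (SD, n = 3 lines) to 399.8 ± 127.3 (SD, n = 2 lines), 1 of 6 members, beside 0.791% of all genes in either direction and 0.189% that rose. Bmp7 (3.23), Bmp2 (2.18) and Bmp5 (1.98) had positive values that did not pass, with adjusted p of 0.122, 0.206 and 0.240 by the same edgeR test, and their lines did not overlap between these clusters. With DESeq2 Bmp7 (adjusted p = 0.0154) and Bmp2 (adjusted p = 0.0408) passed, and with limma Bmp7 (adjusted p = 0.00102), Bmp5 (adjusted p = 0.00785) and Bmp2 (adjusted p = 0.00853). The median over all genes was −0.47 at this step (−0.11 with DESeq2), so the members' values are to be read against that shift. Cluster 6 had 45 cells and 2 lines with at least 10 of them, and the Bmp3 call was lost without PdgfrbGFP (8.06, adjusted p = 0.0810), without Acta2GFP (7.43, adjusted p = 0.304) and without PdgfraGFP (6.81, adjusted p = 0.0506).

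From cluster 6 to cluster 2 no member passed by edgeR or DESeq2, beside 0.957% of all genes. By edgeR 2 members had an unadjusted p under 0.05, and limma on log values per cell called 2. Bmp3 differed by −4.59 (SE 1.28, adjusted p = 0.0960) and Bmp2 by 1.98 (SE 0.825, adjusted p = 0.268, edgeR, quasi-likelihood, Benjamini-Hochberg). The lines of clusters 6 and 2 did not overlap for either gene. They overlapped for Bmp5 and Bmp7, whose values of 0.22 and 0.37 were smaller than their SEs of 0.748 and 0.926.

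**Figure D2:**
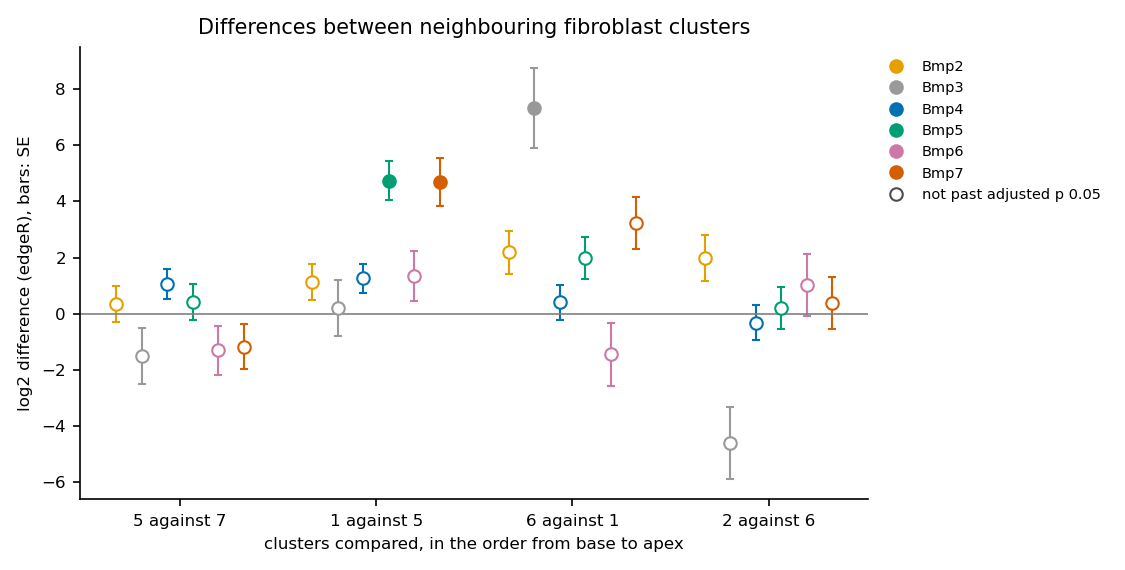
Log2 difference between neighbouring fibroblast clusters (edgeR, bars are SE) for each BMP ligand, filled where the adjusted p was under 0.05. The filled points are Bmp5 and Bmp7 at the step from 5 to 1 and Bmp3 at the step from 1 to 6.

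Counts per kilobase of exon allow the members to be set against each other. Summed over the 6 members, this level per kb was 80.2 ± 7.27 at the base (cluster 7, SD, n = 3 lines) and 140.6 ± 28.9 in cluster 5 (SD, n = 4 lines). It then stood at 427.01 ± 22.8 in cluster 1 (SD, n = 3 lines), at 769.5 ± 67.6 in the 2 lines of cluster 6 and at 753 ± 42.04 at the apex (cluster 2, SD, n = 3 lines). Bmp4 made up 77.96%, 90.7%, 84.1%, 57.2% and 46.4% of it along the order from base to apex. It remained the leading ligand per kb in every fibroblast cluster. The second place changed from Bmp6 in clusters 7 (16.4%) and 5 (4.81%) to Bmp5 in clusters 1 (9.51%), 6 (19.8%) and 2 (22.5%). In cluster 2, Bmp2 and Bmp7 added 17.02% and 13.1%, and in cluster 6 Bmp7, Bmp3 and Bmp2 added 11.2%, 7.15% and 4.25%. These are shares of reads per annotated exon length. They count neither protein nor dimers, and Bmp5 carries the overlap with Gm26903.

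**Figure D3:**
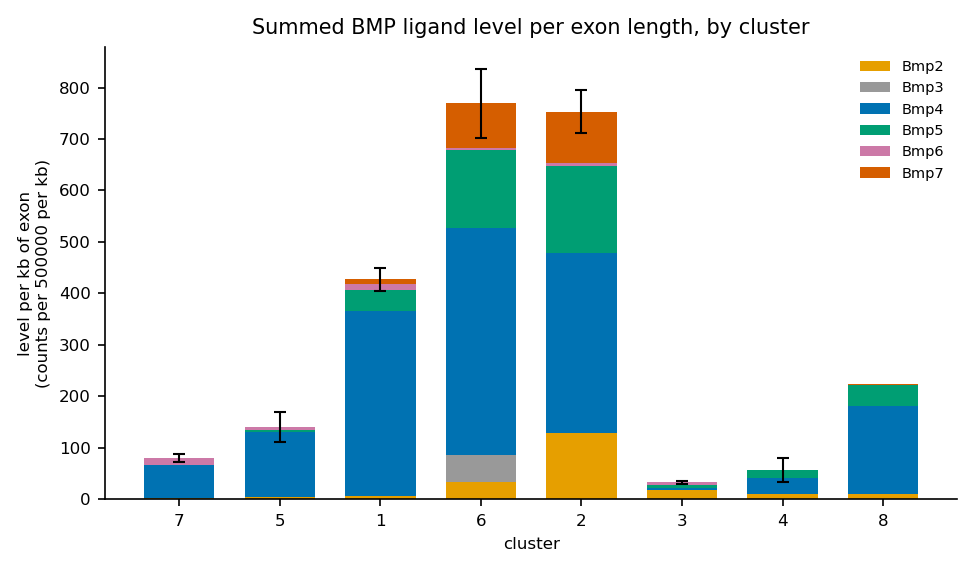
Stacked level per kilobase of exon of the 6 BMP ligands in each cluster, as the mean over lines, with bars for the SD of the sum over lines (none for cluster 8, which had 1 line). The total is 80.2 in cluster 7 and 753 in cluster 2, and the part of Bmp4 narrows from 77.96% to 46.4%.

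The share of cells with a ligand separated members carried by nearly every cell from those carried by some. Cells were thinned to 50000 gene counts each, since deeper cells show more genes, and 11 cells below that depth were left out. Bmp4 had at least 1 count in 86.4% of cluster 7 cells, 93.2% of cluster 5, 98.96% of cluster 1 and all cells of clusters 6 and 2. Bmp5 went from 23.6% and 38.7% in clusters 7 and 5 to 81.5%, 95.6% and 98.5% in clusters 1, 6 and 2. At this depth Bmp2 and Bmp7 were found in the majority of cells in clusters 6 and 2 but not in the other fibroblast clusters: Bmp2 had 31.4% in cluster 1, 27 of 45 cells in cluster 6 and 90.8% in cluster 2, and Bmp7 had 35.97%, 84.4% and 88.5%. Bmp3 was found in 88.9% of cluster 6 cells and in at most 9.09% of any other cluster. Bmp6 ranged from 17.8% to 43.6% of fibroblasts. The 95% exact binomial (Clopper-Pearson) intervals in the plot of shares cover counting error only.

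**Figure D4:**
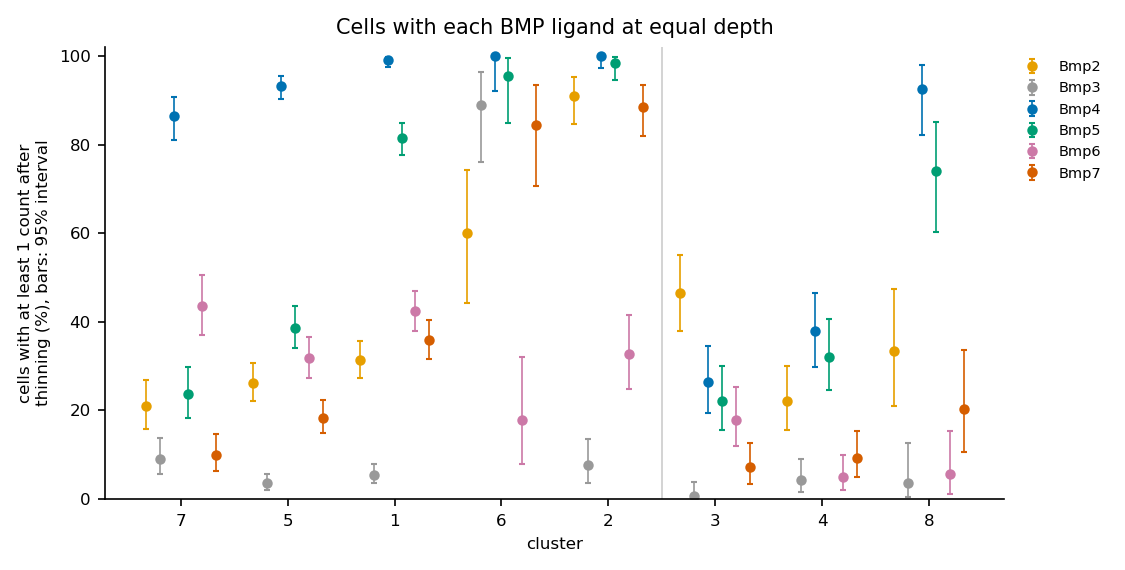
Percentage of cells with at least 1 count of each BMP ligand after thinning every cell to 50000 gene counts, by cluster, with 95% exact binomial intervals. Bmp4 is at 86.4% or above in all fibroblast clusters, and Bmp3 is high in cluster 6 alone (88.9%).

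The lower shares depended on depth and on the count required. Without thinning, 62.8% of cluster 7 cells held at least 1 Bmp5 count and 48.5% of cluster 5 cells held at least 1 Bmp7 count. In cluster 1 the unthinned shares were 53.002% for Bmp2 and 60.2% for Bmp7, and thinning to 100000 counts gave 40.3% and 50.6%. With at least 30 counts, a threshold that the study lowered to for BMP and WNT genes in colon fibroblasts, Bmp5 remained in 1.35% of cluster 7 cells, Bmp2 in 83.2% and Bmp7 in 79.4% of cluster 2 cells, and Bmp3 in 77.8% of cluster 6 cells. At that threshold Bmp4 was in at least 25% of the cells of 6 clusters, Bmp5 of 4, Bmp2 of 3 (clusters 6, 2 and 3), Bmp7 of 2 (6 and 2), Bmp3 of 1 and Bmp6 of none. In cells of clusters 7 and 5, Bmp3 and Bmp7 also followed their means in wells that shared the plate row or column. The Spearman rho averaged 0.396 for Bmp3 (0.155 to 0.530 over 5 plates, 579 cells) and 0.303 for Bmp7 (0.0414 to 0.573 over 6 plates, 606 cells). For the other members plates went both ways. The averages were 0.196 for Bmp2 (−0.223 to 0.475), 0.164 for Bmp5 (−0.211 to 0.611), 0.0956 for Bmp6 (−0.127 to 0.436) and 0.0426 for Bmp4 (−0.145 to 0.172). Wells of a plate share handling and sequencing, and the part of such spread between wells in the low values was not tested.

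Cells towards the apex held more of the ligands at once. The thinned cells carried a mean of 1.94, 2.12, 2.96, 4.47 and 4.18 members along the order from cluster 7 to cluster 2. At least 4 of the 6 were found in 6.82%, 13.4%, 31.2%, 86.7% and 87.02% of those cells. In cluster 2, 87.8% of cells held both Bmp5 and Bmp7, with a Spearman rho of 0.331 over the cells, and in cluster 6, 84.4% held both Bmp3 and Bmp5. Cells of a cluster share lines and plates, so these are descriptions.

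In the mural cells the members were not uniformly low. Between the mean of the 5 fibroblast clusters and the mean of clusters 3 and 4, 4 of 6 members were higher in fibroblasts, beside 12.4% of all genes in either direction and 5.08% in this one: Bmp4 by 4.63 (SE 0.503, adjusted p = 2.58e-06), Bmp7 by 5.60 (SE 0.806, adjusted p = 6.67e-05), Bmp3 by 4.77 (SE 1.00, adjusted p = 0.00256) and Bmp6 by 2.63 (SE 0.742, adjusted p = 0.0226), on the log2 scale (edgeR, Benjamini-Hochberg). Bmp2 (−0.12, SE 0.439) and Bmp5 (0.87, SE 0.456) did not pass. With limma on log values per cell all 6 were called, Bmp5 by 3.29 (adjusted p = 2.40e-06), and with DESeq2 3 were, with no adjusted p for Bmp3. Bmp2 in cluster 3 measured 72.5, 46.2 and 67.98 in PdgfrbGFP, Acta2GFP and Cspg4dsRED, above every line of clusters 7, 5 and 1, and its share of the summed ligand level per kb there was 54.6%. The Bmp3 call was lost without PdgfrbGFP (4.53, adjusted p = 0.0518) and that of Bmp6 without Acta2GFP (2.58, adjusted p = 0.0568), PdgfraGFP (1.85, adjusted p = 0.0983) or Cspg4dsRED (2.20, adjusted p = 0.108). With reporter line as a block in the edgeR fit, Bmp3 (4.20, adjusted p = 0.0569) and Bmp6 (2.38, adjusted p = 0.116) also missed the threshold. The mean over the fibroblast clusters covers unlike values. Bmp3 stood at 4.94, 2.55, 1.85 and 6.77 in clusters 7, 5, 1 and 2 against 399.8 in cluster 6. Bmp7 stood at 3.41 and 1.62 in clusters 7 and 5. In clusters 3 and 4 Bmp3 had 0.224 and 1.44, and Bmp7 had 0.703 and 1.33.

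Between the pericytes of cluster 4 and the smooth muscle cells of cluster 3 no member passed by edgeR or limma, beside 0.819% of all genes, while DESeq2 called 2 and edgeR gave an unadjusted p under 0.05 for 2. Bmp4 measured 87.2 and 47.8 in cluster 4 in PdgfrbGFP and Cspg4dsRED, and 4.71, 25.9 and 2.66 in cluster 3 in PdgfrbGFP, Acta2GFP and Cspg4dsRED. These lines did not overlap, and the log2 difference was 2.51 (SE 0.627, adjusted p = 0.0692, edgeR, quasi-likelihood, Benjamini-Hochberg). It passed without Acta2GFP (4.20, adjusted p = 0.00170, edgeR) and with DESeq2 (2.45, adjusted p = 0.0149), and in edgeR with reporter line as a block (3.03, adjusted p = 0.0314), with no filter (adjusted p = 0.0172) and with plates in place of lines (adjusted p = 0.00382). Bmp6 lay the other way, with 24.5, 13.3 and 8.30 in cluster 3 and 3.58 and 0 in cluster 4, and a log2 difference of −3.28 (SE 1.23, adjusted p = 0.268, the same test). The Bmp4 counts were uneven between cells. In cluster 4 the median cell had 1.80, the upper quartile 34.95 and the highest cell 1369.7, and the median in cluster 3 was 0.690. Fibroblast markers also had a higher mean sum in cluster 4 (1658.6) than in cluster 3 (522.7), without overlap between lines. Their part in the Bmp4 difference was not tested.

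Cluster 8, of which 52 of 56 cells came from Acta2GFP, held Bmp4 at 385.3 in that line. This was above every line of clusters 3 and 4 and higher than their mean by 4.35 on the log2 scale (SE 0.626, adjusted p = 0.00118, edgeR, quasi-likelihood, Benjamini-Hochberg), 1 of 6 members, beside 1.16% of all genes in either direction and 1.03% in this one. Bmp5 stood at 167.7, with a log2 difference of 2.22 (SE 0.780, adjusted p = 0.247, the same test). It passed with sums from 3 cells upwards (2.96, adjusted p = 0.0130, edgeR), by plates (2.39, adjusted p = 0.0426, edgeR) and with limma (3.57, adjusted p = 0.00814). Bmp3, Bmp6 and Bmp7 lay between 0.401 and 2.43. The median over all genes was −0.26. The 1 sum of cluster 8 has no spread of its own and was assumed to vary like the other clusters, so these SEs and p-values rest on that assumption. Within Acta2GFP, Bmp4 was 25.9 in cluster 3, and the 4 PdgfrbGFP cells of cluster 8 held 159.6 against 4.71 in cluster 3 in that line.

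The genes around the ligands were taken as 6 lists of 56 genes, of which 51 were tested. Between the crypt ends 6 were higher and 5 lower at the apex, beside 3.66% of all genes in either direction and 2.12% higher. Of 10 BMP target genes tested, 4 rose and none fell, and the median over the list was 3.35 on the log2 scale against 0 for all genes. Id1, an inhibitor of basic helix-loop-helix factors and the textbook BMP target, rose from 1.34 to 170.97 (log2 difference 7.29, adjusted p = 4.36e-05), the related Id3 from 54.1 to 667 (3.37, adjusted p = 1.10e-05) and Id2 from 10.2 to 74.1 (3.50, adjusted p = 0.000349), and the transcription factor Atoh8 from 0.513 to 36.5 (6.27, adjusted p = 0.00253), all in the edgeR fit. None of the 4 SMAD transducers passed.

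Among 13 antagonists and binding proteins 1 rose and 2 fell. Twsg1, which binds BMPs together with chordin, rose from 83.03 to 835. Fstl1, a secreted BMP-binding glycoprotein, fell from 1602 to 462.8, and Fstl3, an activin inhibitor, fell from 101.1 to 39.4. Of 7 processing enzymes 2 fell: Pcsk5, a convertase that cuts ligand precursors, from 282.6 to 28.4, and Bmp1, a chordin-cutting metalloprotease and not a ligand, from 203.1 to 71.8. Of 10 receptors 1 fell, the co-receptor Rgma, from 28.3 to 0.464, and of 7 other ligands tested out of 11, Inhbb, the activin B subunit, passed at mean levels of 0 in cluster 7 and 1.98 in cluster 2 (up to 3.68 in a line). Without Acta2GFP the count over the lists was 4 in place of 11, without PdgfraGFP 6 and without PdgfrbGFP 7. Grem1, the antagonist best known from the crypt base, was chosen here after its values were seen. It had 13.7, 246.5, 267.4, 2.77 and 6.28 in clusters 7, 5, 1, 6 and 2, and passed at no step.

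At single steps, of the 51 genes tested, none passed from 7 to 5 or from 5 to 1 (beside 0.0138% and 0.184% of all genes, and with reporter line as a block 2 passed from 5 to 1), 3 from 1 to 6, beside 0.791% (Id2 and the antagonist Nbl1 higher, and Bambi, a decoy receptor that BMPs induce, lower), and 2 from 6 to 2, beside 0.957% (Atoh8 and Bambi higher). Without PdgfrbGFP, Acta2GFP or PdgfraGFP, 1, 0 and 1 passed from 1 to 6, and 0, 0 and 1 from 6 to 2. Without Cspg4dsRED 6 passed at each of these steps. Between fibroblasts and clusters 3 and 4, 6 were higher and 10 lower in fibroblasts, beside 12.4% of all genes in either direction and 5.08% higher, and the 5 BMP targets among them, Atoh8, Hey1, Id1, Bambi and Id3, were all lower, with log2 differences of −2.98, −2.45, −2.37, −2.21 and −0.84. Fstl1 was higher in fibroblasts (1.31), while Nog, a secreted antagonist, was lower (−5.40). The Nog levels were low throughout. They were 5.04 in cluster 3 (0 to 11.5 over lines), 0.448 in cluster 4 and at most 0.101 in the fibroblast clusters.

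**Figure D5:**
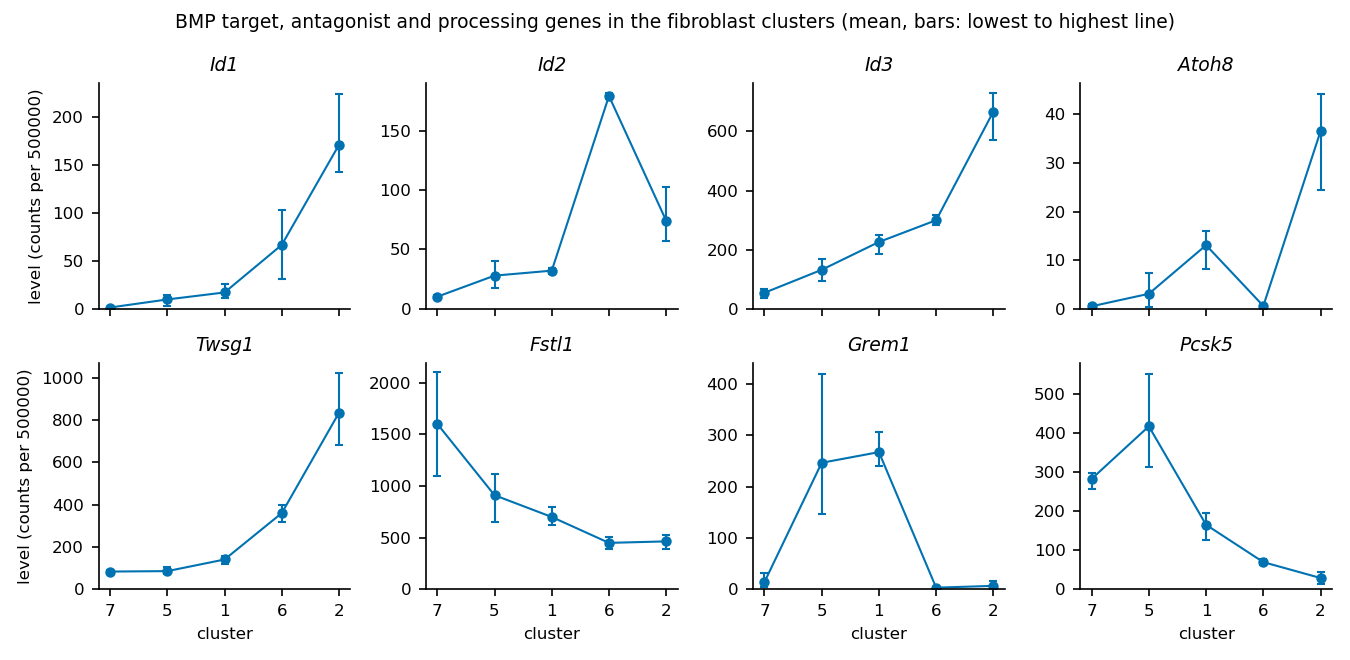
Levels (counts per 500000) of BMP target genes, antagonists and a processing enzyme in fibroblast clusters 7, 5, 1, 6 and 2, as means over lines with bars from the lowest to the highest line. Id1, Id3 and Twsg1 are highest in cluster 2, Id2 in cluster 6, Grem1 in clusters 5 and 1, and Fstl1 in cluster 7.

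Over the 21 sums of cells by cluster and line, the genes most like each member were found by Pearson r of log2 levels among 10430 genes, as a description. The points share lines and clusters. For Bmp5 the first was Gm26903 (0.997), whose exons overlap its own, followed by Rerg (0.956) and Sema3f (0.954). For Bmp4 they were Srpx2 (0.9495), Ptges (0.946) and Mmp2 (0.940), for Bmp7 Mycn (0.944), Bean1 (0.928) and Rgs17 (0.897), and for Bmp2 Mmd (0.877), Emid1 (0.875) and Marcksl1 (0.851). For Bmp3 they were Ccdc77 (0.854), the WNT inhibitor Wif1 (0.8289) and Pde1c (0.819), and for Bmp6 Pusl1 (0.868), Tars (0.834) and Tsen15 (0.809). Among the members, Bmp2 and Bmp5 were most alike (0.832), then Bmp5 and Bmp7 (0.803) and Bmp3 and Bmp7 (0.714). Members of a subfamily were not always alike: r was 0.0728 for Bmp2 with Bmp4, −0.112 for Bmp5 with Bmp6 and 0.252 for Bmp6 with Bmp7. All these values include the mural sums. Over the fibroblast sums alone r was 0.691 for Ptges and 0.665 for Mmp2 with Bmp4. It was 0.761 for Tars and 0.711 for Tsen15 with Bmp6, and at least 0.820 for the other genes named as most alike.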

How the data were processed

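Single cells were sorted into plates and sequenced with SmartSeq2 (full-length cDNA, single reads of 50 bases, no molecular identifiers and no strand mark). Per the study's methods the authors demultiplexed with bcl2fastq, trimmed adapters, aligned to GRCm38 (mm10) with TopHat2 and Bowtie, applied a samtools step they describe as removing doublets, and counted with featureCounts. The annotation release is not given in the sources used here. The authors deposited raw read counts per Ensembl gene for the 1646 cells left by their own filters on counts, genes, spike-ins and signatures of other cell types. No further cell filter or doublet caller was applied. Symbols came from GENCODE vM21. Totals and tests used genes only, without the 92 spike-in rows (1.36% of counts).

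From these counts, levels were computed as counts per 500000. For tests, raw counts were summed per cluster and reporter line with at least 10 cells (21 sums of 2202988 to 85478239 counts) and fitted together in edgeR 4.0.16 (R 4.3.3: TMM, filterByExpr, quasi-likelihood F test, 1 mean per cluster), with Benjamini-Hochberg adjustment over 21739 genes and a threshold of 0.05. SEs were taken from the fold change and F. The reporter line stood in for the replicate because no label names a mouse, so p-values measure the spread between lines, which can include mice, gates and digestion. Alternatives were DESeq2 1.42.0, limma 3.58.1 on log2 values per cell with a pseudocount of 1, reporter line as block, no filter, sums from 3 cells upwards, each line left out, and sums by plate. Tested on simulated data for cluster 2 against cluster 7 (20520 genes), edgeR found 65 of 100 changes of log2 size 4 and 8 of 100 of log2 size 2, with 3 false calls. DESeq2 found 88 and 35, with 105 false calls.

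Genes were named by rule: the 6 members, at most 5 genes of each pathway list that passed a test, by size of the difference between clusters 2 and 7, the 3 genes most like each member, and the markers. Members and lists were chosen with earlier results of these data known. Sequences were read from the GENCODE vM21 transcripts. Promoter sequences were not used.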

Additional observations from a re-analysis of the deposited data

Results flagged for a closer look

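The level of Bmp3 in cluster 5 stood out in 1 of its 4 lines: PdgfraGFP had 9.23 counts per 500000 and the next line 0.614, a gap of 0.933 of the whole range, beyond Dixon's 95% critical value for 4 samples. Of 6 groups of 4 lines looked at, this was the 1 that exceeded it, and chance flags about 1 in 20 groups. The value lies far below the 310 to 490 of cluster 6. It came mostly from 1 cell. The highest cell of cluster 5 held 552.1 counts per 500000, while the median PdgfraGFP cell of that cluster held 0. Only 1 cell of cluster 5 had at least 30 Bmp3 counts. In 0 of 12 member and comparison pairs did all plates of one line move against all plates of another.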

How the results depend on the processing

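Over all alternative values of a member in a comparison, 89.7% kept their direction and their side of the threshold, 17 no longer passed, 17 newly passed and 14 turned direction. For the 12 calls 85.5% of the alternatives held, 17 missed the threshold and none turned. The number of members called moved as follows. With each line left out it ranged from 2 to 4 (4 with all lines) between the crypt ends, from 0 to 2 (2) from cluster 5 to 1, from 0 to 1 (1) from 1 to 6, and from 0 to 1 (0) between clusters 4 and 3. For fibroblasts against mural cells it was 6 with limma and 3 with DESeq2 (4). With limma it was 1 from cluster 5 to 1, 4 from 1 to 6, 2 from 6 to 2 (0), and 2 for cluster 8 (1). With DESeq2 it was 2 from 1 to 6 and 2 between clusters 4 and 3, with no filter 1 for the latter, and with at least 3 cells per sum or plates in place of lines 2 for cluster 8. Plates gave 1 between clusters 4 and 3. The cause was not tested, beyond the fewer samples left by an omitted line.

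With reporter line as replicate block, the count was 2 in place of 4 for fibroblasts against mural cells (Bmp3 4.20, adjusted p = 0.0569, and Bmp6 2.38, adjusted p = 0.116, edgeR) and 1 in place of 0 between clusters 4 and 3 (Bmp4 3.03, adjusted p = 0.0314). The block changed no other call of a member. Of the pathway genes it called 2 in place of 0 from cluster 5 to 1, 6 in place of 2 between clusters 4 and 3, and 1 in place of 3 for cluster 8. Sums of the same line correlated in their deviations from the cluster means by 0.0739, 0.0653 and 0.102 for clusters 2 and 7 (Acta2GFP, PdgfraGFP, PdgfrbGFP), by 0.169, 0.0645 and 0.196 for 5 and 7 and by 0.121, 0.0938 and 0.215 for 1 and 5 in the same order, and by 0.178 and 0.167 for 4 and 3 (Cspg4dsRED, PdgfrbGFP). Not every pair was over 0.1, so the pairing was not taken as shown.

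Directions turned only for values that had not passed. With lines left out, log2 differences ranged from −0.57 to 0.74 (Bmp2), −0.022 to 0.72 (Bmp5) and −2.75 to 0.096 (Bmp7) from cluster 7 to 5, from −0.83 to 3.05 (Bmp3) from 5 to 1, from −0.25 to 0.0057 (Bmp2) for fibroblasts against mural cells, from −0.071 to 1.01 (Bmp5) and −0.88 to 1.17 (Bmp7) between clusters 4 and 3, and from −2.73 to 2.26 (Bmp6) for cluster 8. Bmp2 in fibroblasts against mural cells was 0.065 with at least 3 cells and 0.98 with limma (adjusted p = 0.0349), Bmp7 between clusters 4 and 3 was −0.011 with limma, and Bmp2 in cluster 8 was 1.58 with at least 3 cells.

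Of the 96 alternative levels 8 moved by more than the SD between lines. With counts summed before scaling these were Bmp2 in cluster 6 (111.7), Bmp3 (12.6) and Bmp6 (36.1) in cluster 2, and Bmp5 in cluster 3 (31.9). With plates they were Bmp2 in clusters 6 (113.3) and 2 (371.7), Bmp3 in cluster 7 (6.00) and Bmp4 in cluster 1 (715.002). Thinning to 100000 counts raised the members found in at least 25% of cluster 7 cells from 2 to 4. Without division by exon length the part of Bmp4 was 66.6% in cluster 7 and 33.7% in cluster 2. With that division and lines left out, the part of Bmp4 ranged from 75.5% to 80.6% in cluster 7 and from 42.7% to 50.7% in cluster 2.

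Over all genes tested DESeq2 called 8.55%, 0.856%, 1.40%, 7.70%, 8.97%, 5.57% and 4.14% where edgeR called 3.66%, 0.0138%, 0.184%, 0.791%, 0.957%, 0.819% and 1.16% (crypt ends, the 4 steps in order, cluster 4 against 3, cluster 8). The lowest values, with a line left out, were 0.700%, 0%, 0.0284%, 0.0520%, 0.0236%, 0.226% and 0.630%, and for fibroblasts against mural cells the alternatives ranged from 7.67% to 18.3% around 12.4%. Of the pathway genes the alternatives called 4 to 16 (11 by edgeR), 0 to 7 (0), 0 to 5 (0), 0 to 6 (3), 0 to 10 (2), 0 to 6 (2) and 1 to 7 (3) in that order. DESeq2 gave no adjusted p for Bmp3. Cluster 8 without Acta2GFP could not be fitted, since no other line had 10 of its cells. With no molecular identifiers, reads are not independent molecules, and at this number of lines a change of log2 size 2 was rarely recovered in simulated data.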
